A study of Homo sapiens with 6 samples.

Results

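The cytosolic ribosomal protein genes were examined in U87-MG cells, an established human glioblastoma line. They were chosen by name as the protein-coding genes whose symbol is RPL or RPS followed by digits and at most one of the letters A, X or Y, together with RPLP0, RPLP1, RPLP2, RPSA and FAU. This gave 80 of the 61731 genes and loci in the table, 46 of the large subunit and 34 of the small subunit. All 46 large subunit genes and 32 of the small subunit genes reached a mean of 1 TPM over the 6 libraries and were tested. The Y-linked genes RPS4Y1 and RPS4Y2 did not reach it. TPM is the share of a library taken by a gene's transcripts after allowing for their length.

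The study asked how lowering CHRM3, the muscarinic acetylcholine receptor M3, changes glioblastoma cells. Total RNA was sequenced from 3 libraries of negative control cells (NC) and 3 libraries of cells whose genotype label reads CHRM Knockdown (KD). All libraries came from the one line, no time point is given, and it is not stated which of the study's knockdown sequences the KD cells carried, whether KD 1, 2 and 3 are different sequences, or whether the libraries came from separate cultures, so the p-values measure the spread between these libraries. The labels name an RNeasy extraction and a SMARTer library kit, whereas the study's methods name TRIzol and TruSeq. CHRM3 itself was at 0.02, 0.09 and 0.13 TPM in NC and 0.13, 0.01 and 0.02 TPM in KD, so its reduction was not detectable in these values. The study reports an efficient knockdown of CHRM3 in U87-MG from other assays. KD below means the libraries labelled knockdown. Of the glioblastoma line markers, VIM (6528 to 7451 TPM) and CD44 (458.95 to 619.74 TPM) were high, GFAP and NES were low (0.87 to 4.01 TPM) and SOX2 and OLIG2 were at most 0.56 TPM, while the leukocyte genes CD3E and TYROBP were at 0 TPM in all 6 libraries.

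A ribosome is built from a large subunit, which joins amino acids into a chain, and a small subunit, which reads the messenger RNA. Each subunit holds ribosomal RNA and a fixed set of proteins, nearly all present in a single copy, and growing cells spend much of their messenger RNA on those proteins. Their messenger RNAs are known for starting with a C followed by an unbroken run of pyrimidines, the terminal oligopyrimidine (TOP) tract, through which mTORC1 signalling controls how strongly they are translated. The level of a messenger RNA does not show how much of it is translated, and translation was not measured here.

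The starts of 13 genes are shown, those with large rises, the called falls, the most abundant and a paralogue pair, because the tract is shared by most of the family and the rule did not use it. The table of starts held none for RPS2. Each line gives 10 bases before and 20 bases from a transcription start listed by RefSeq, 5′ to 3′ on the gene's strand, in build GRCh38.p14. The run of pyrimidines that begins with a C at the start is in capitals. Where several starts are listed (3 for RPL13 and 2 for RPL26L1), the start with the longest run was chosen. RPL4 and RPL26L1 have no such run at the start shown. In RPL4 a run of pyrimidines that begins with a C lies a few bases further in and was not counted.
RPL12, chr9:127451387-127451416, minus strand: cgatttccggCCTCTCggctttcggctcgg
RPL13, chr16:89560672-89560701, plus strand: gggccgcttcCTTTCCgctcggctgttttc
RPS14, chr5:150449720-150449749, minus strand: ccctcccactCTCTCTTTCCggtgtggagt
RPL36A, chrX:101391001-101391030, plus strand: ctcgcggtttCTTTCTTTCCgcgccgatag
RPL35, chr9:124861938-124861967, minus strand: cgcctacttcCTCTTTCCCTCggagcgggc
RPLP0, chr12:120201092-120201121, minus strand: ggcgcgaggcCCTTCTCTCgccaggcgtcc
RPL41, chr12:56116623-56116652, plus strand: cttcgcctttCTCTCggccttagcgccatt
RPL13A, chr19:49487598-49487627, plus strand: aaacctcctcCTTTTCCaagcggctgccga
RPS16, chr19:39435930-39435959, minus strand: ccctagctttCCTTTTCCggttgcggcgcc
RPS9, chr19:54200848-54200877, plus strand: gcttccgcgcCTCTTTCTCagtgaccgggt
RPL4, chr15:66504836-66504865, minus strand: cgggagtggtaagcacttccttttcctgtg
RPL26, chr17:8383174-8383203, minus strand: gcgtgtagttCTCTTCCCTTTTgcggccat
RPL26L1, chr5:172958719-172958748, plus strand: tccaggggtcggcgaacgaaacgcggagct

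The table of starts held 65 of the 80 ribosomal protein genes. A C at any listed start followed by at least 4 further pyrimidines was found in 48 of them (73.8%), against 6.24% of 15843 protein-coding genes. The longest run of each of the 48 genes had a median of 8 bases. The share was alike in the subunits, at 28 of 38 large and 20 of 27 small subunit genes. By response, a tract at a listed start was present in 30 of 39 genes called higher in KD, 3 of 4 called lower and 14 of 20 called neither. In the 300 bases around the start, searched on both strands, the letters CTTCCG were present in 64.6% of the ribosomal protein genes against 29.7% of all, and ATGGCG in 40.0% against 17.0%. CTTCCG can share bases with the tract. GGGCGG (56.9% against 64.3%) and TATAAA (7.69% against 12.4%) were not more frequent in the family than in all genes. These matches describe the letters only.

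Most ribosomal protein genes were slightly higher in KD than in NC. In a limma fit on log2(TPM + 1), 51 of the 78 tested genes were higher and 4 were lower at an adjusted p under 0.05, and 23 passed in neither direction. Over all 13722 tested genes, 12.1% were higher and 24.0% were lower. Among the 212 other genes of at least 500 TPM, which are measured about as precisely, 36.8% were higher and 35.4% were lower. The log2 fold change was positive in 71 of the 78 genes, with a median of 0.10 against -0.06 for all tested genes. The median of the 212 other genes of at least 500 TPM was -0.00092. Quantile normalization, which forces the same distribution on every library, gave 29 higher and 7 lower, with 56 positive. Over all tested genes it gave 16.3% higher and 16.2% lower.

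The changes were small and close to each other. They ran from -0.11 to 0.53 on the log2 scale, and no ribosomal protein gene changed by 1 or more. Their SD over the 78 genes was 0.102, against 0.401 over all tested genes and 0.324 over the 212 other genes of at least 500 TPM. The replicate spread was small too, with a median coefficient of variation of 1.39% in NC and 1.47% in KD, and the median standard error of a fold change was 0.0194. All 3 KD libraries lay above all 3 NC libraries for 59 genes (17.4% of all tested genes did so) and below them for 4 (32.8% of all tested genes). The groups overlapped for the other 15 genes, among them RPS19, RPL41, RPS3 and RPL22. As a description across the 78 genes, which share the same 6 libraries, the Spearman correlation of the fold change was 3.8e-05 with mean TPM, 0.0746 with transcript length and 0.00148 with GC content.

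**Figure D1:**
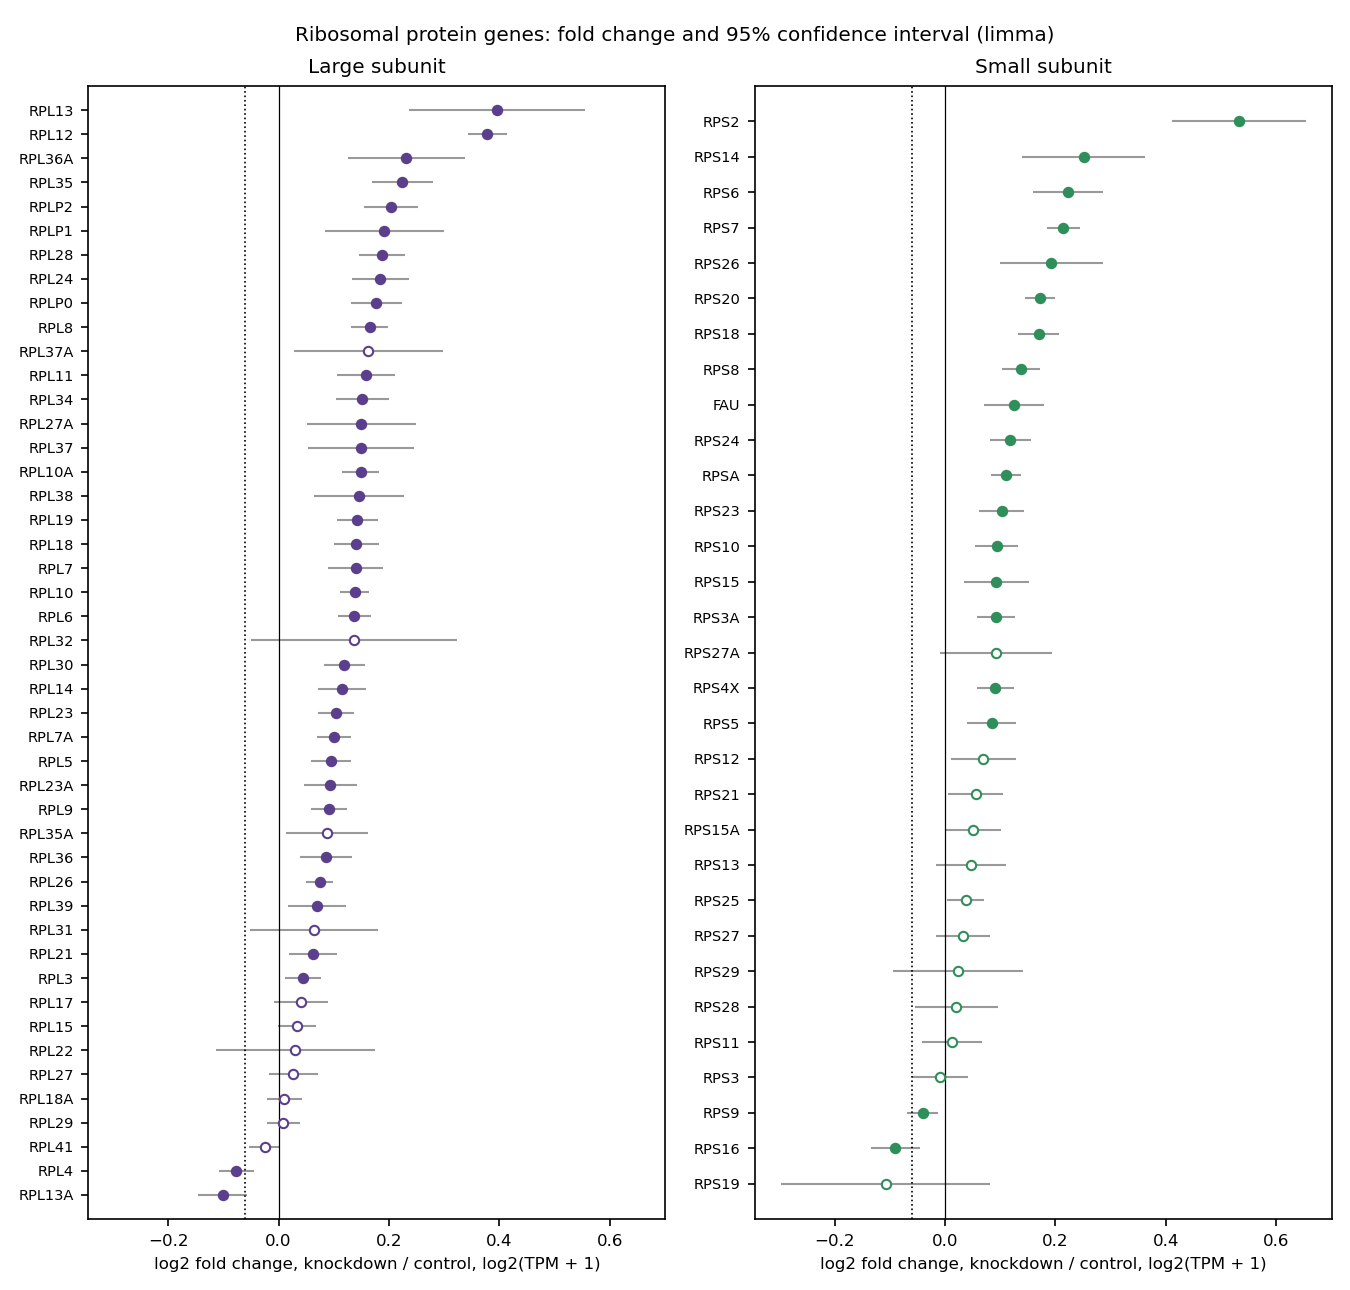
Log2 fold change (knockdown over control, of TPM + 1) with its 95% confidence interval for tested ribosomal protein genes, ordered by size within each subunit, with filled points for called genes and a dotted line at the median of all tested genes (-0.06). Most genes lie just above 0, and RPS2 (0.53), RPL13 (0.40) and RPL12 (0.38) stand above the rest.

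Ribosomal protein messenger RNA took 17.5% to 19.3% of each library. Its summed TPM was 17.84%, 17.82% and 17.50% of the total in NC 1, 2 and 3, and 18.93%, 19.04% and 19.29% in KD 1, 2 and 3. The groups did not overlap, and the mean rose from 17.7% ± 0.189 to 19.1% ± 0.184 (SD, n = 3), a relative difference of 7.70%. This is a share of bulk RNA, and more of these transcripts per cell cannot be told apart from less of other RNA. Transcripts encoded in the mitochondrial genome moved the other way, from 5.40% ± 0.0768 to 4.57% ± 0.259 of the total (SD, n = 3). With them removed and the rest rescaled, 47 ribosomal protein genes were higher and 5 were lower (11.4% and 25.6% of all tested genes). The median log2 fold change of all genes, -0.06, became 0.00 under median-of-ratios scaling, which gave 66 higher and 0 lower with a median of 0.17 for the family (16.8% of all tested genes higher and 16.4% lower).

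Both subunits had more genes higher than lower. In the large subunit 33 of 46 genes were higher and 2 lower, with a median log2 fold change of 0.13, and in the small subunit 18 of 32 were higher and 2 lower, with a median of 0.09. The summed share of the large subunit was 10.5% ± 0.108 in NC and 11.4% ± 0.119 in KD, and that of the small subunit 7.18% ± 0.0818 and 7.69% ± 0.0661 (SD, n = 3). The ratio of large to small subunit TPM was 1.468, 1.466 and 1.470 in NC and 1.478, 1.485 and 1.485 in KD. All KD ratios lay above all NC ratios, and the mean ratio was 0.986% higher in KD.

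**Figure D2:**
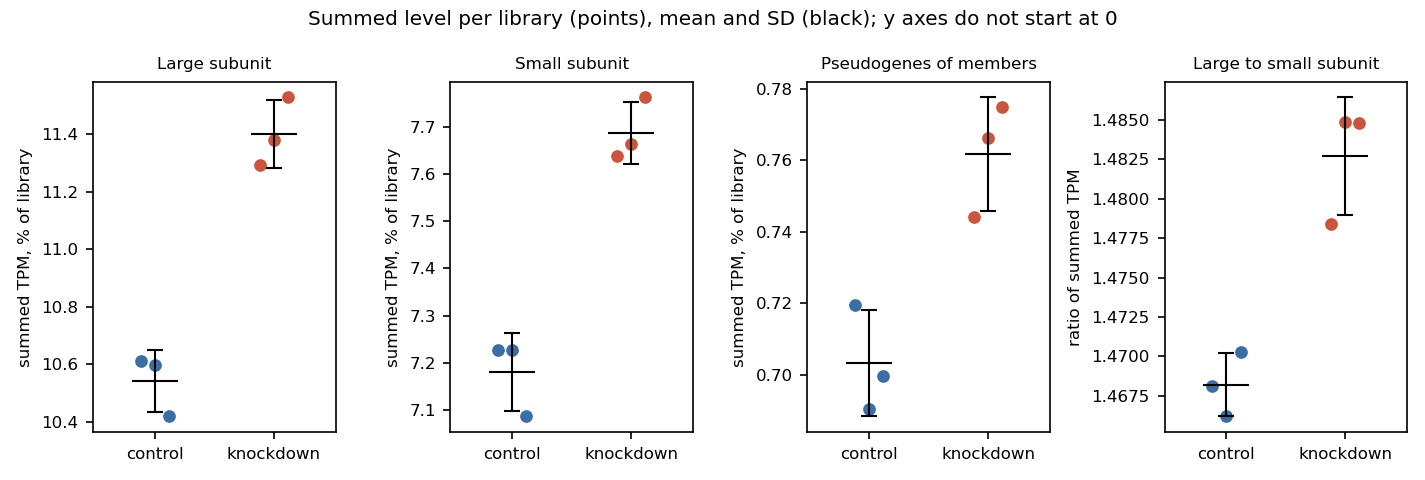
Summed TPM as a percentage of the library for the large subunit, the small subunit and the pseudogenes named after ribosomal protein genes, and the ratio of large to small subunit TPM, per library in control and knockdown (points) with mean and SD of 3 libraries. The y axes do not start at 0, and in each panel the knockdown libraries lie above the controls, such as 11.3% to 11.5% against 10.4% to 10.6% for the large subunit.

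The small differences between replicates had an order of their own in this family. NC 3 was the lowest of its group for 47 of the 78 ribosomal protein genes (60.3%), against 31.1% of all tested genes. KD 1 was the lowest of its group for 38 (48.7%), against 33.9%. Both held for 28 genes (35.9%), against 11.7%. RPS19 and RPL32, small and large subunit proteins with some of the largest spreads, followed this order. RPS19 was at 2366, 2296 and 2071 TPM in NC and 1866, 2151 and 2240 TPM in KD (log2 fold change -0.11, limma adjusted p = 0.335). RPL32 was at 1977, 1910 and 1721 TPM in NC and 1847, 2129 and 2196 TPM in KD (0.14, limma adjusted p = 0.220). The groups overlapped for both genes.

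RPS2, RPL13 and RPL12 rose most. RPS2 (ENSG00000140988, chromosome 16, 1962052 to 1964860, GRCh38), a small subunit protein near the decoding site, was at 2365, 2323 and 2336 TPM in NC and 3174, 3327 and 3675 TPM in KD. Every KD library lay well above the controls, and the log2 fold change was 0.53 (SE 0.0504, limma adjusted p = 0.000483), or 44.9% more TPM. RPL13 (ENSG00000167526, chromosome 16, 89560657 to 89566828), a large subunit protein, was at 3461, 3514 and 3322 TPM in NC and 4134, 4456 and 5001 TPM in KD. Its KD libraries were further apart than those of any other ribosomal protein gene (coefficient of variation 9.67%), and all of them exceeded the controls (log2 fold change 0.40, SE 0.0664, limma adjusted p = 0.00478).

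RPL12 (ENSG00000197958, chromosome 9, 127447674 to 127451405), which lies at the base of the stalk where translation factors bind, was at 1631, 1587 and 1626 TPM in NC and 2107, 2088 and 2102 TPM in KD. Its groups were tight and far apart, with a log2 fold change of 0.38 (SE 0.0148, limma adjusted p = 1.6e-05). RPS2, RPL13 and RPL12 together took 0.739% ± 0.00914 of the NC libraries and 1.002% ± 0.0694 of the KD libraries (SD, n = 3). Without them, the rest of the family rose by 6.49% in summed TPM. The next largest rises were those of RPS14, RPL36A and RPL35. RPS14, a small subunit protein whose gene lies in the region lost in the 5q- syndrome, was at 955.12, 978.31 and 948.65 TPM in NC and 1068, 1146 and 1220 TPM in KD (log2 fold change 0.25, limma adjusted p = 0.00711). RPL36A was at 510.26, 516.46 and 496.45 TPM in NC and 639.29, 571.81 and 579.49 TPM in KD (0.23, limma adjusted p = 0.00807). In RPL35, at 0.22 (limma adjusted p = 0.000666), the groups were again apart.

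Processed pseudogenes, which are gene copies made from messenger RNA, are nearly identical to several of these genes, so reads may have been shared between them. Of 1589 pseudogenes named after a ribosomal protein gene, 44 reached 1 TPM, 7 of them higher and 5 lower in KD. Over all tested genes 12.1% were higher and 24.0% lower. The median log2 fold change of the 44 was 0.03. The summed share of all 1589 was 0.703% ± 0.0149 in NC and 0.762% ± 0.0158 in KD (SD, n = 3). RPS2P5 moved with its parent RPS2, from 220.9 ± 6.32 to 310.3 ± 32.3 TPM (SD, n = 3; log2 fold change 0.48, limma adjusted p = 0.00325). Some copies were listed above their parents, such as RPL36AP37, at 1397 ± 42.6 TPM in NC and 1702 ± 50.2 TPM in KD (SD, n = 3), against 496.45 to 639.29 TPM for RPL36A. RPL23AP42 was at 2168 and 2209 TPM (means of NC and KD) against 656.60 to 722.76 TPM for RPL23A, and RPS28P7 at 1947 and 1828 TPM against 1050 to 1133 TPM for RPS28. RPL22P1, a copy of RPL22, was at 100.2 ± 8.12 TPM in NC and 142.7 ± 23.8 TPM in KD (SD, n = 3). It was called higher (log2 fold change 0.50, limma adjusted p = 0.0237), whereas RPL22 had means of 341.6 and 349.8 TPM. RPL39P3, a copy of RPL39, was at 406.71 to 733.31 TPM in NC and 724.11 to 790.22 TPM in KD. It was not called (limma adjusted p = 0.143), and RPL39 had means of 3114 and 3267 TPM. The levels of RPL36A, RPL23A, RPS28 and RPL22 are therefore uncertain, as is the small rise of RPL39. RPL36A is further split with its readthrough gene RPL36A-HNRNPH2, which was at 365.18 to 443.60 TPM in NC and 310.50 to 456.89 TPM in KD. Adding each pseudogene to its parent gave 50 genes higher and 4 lower (12.1% and 24.1% of all tested genes).

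The genes called lower were RPL13A, RPS16, RPL4 and RPS9. RPL13A (chromosome 19, 49487554 to 49492308), known also for a role outside the ribosome in silencing inflammatory messenger RNAs, was at 2423, 2413 and 2339 TPM in NC and 2196, 2241 and 2251 TPM in KD (log2 fold change -0.10, SE 0.0183, limma adjusted p = 0.00643). RPS16 was at 2938, 2887 and 2905 TPM in NC and 2797, 2727 and 2676 TPM in KD (-0.09, limma adjusted p = 0.0103). RPL4, which reaches into the exit tunnel of the large subunit, was at 4007, 4053 and 4038 TPM in NC and 3801, 3883 and 3787 TPM in KD (-0.08, limma adjusted p = 0.00531). RPS9, at the entry of the messenger RNA channel, was at 1880, 1871 and 1878 TPM in NC and 1816, 1815 and 1841 TPM in KD (-0.04, limma adjusted p = 0.0378). KD lay below NC in all libraries for each of these genes, but the differences were small (RPL13A fell by 6.79% of its NC mean) and depended on the scaling. None was called under median-of-ratios scaling, where RPS9 was positive (0.03). RPS16, RPL4 and RPS9 were at or just above 0 (0.00, 0.02 and 0.00) after correction for transcript length and GC content.

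**Figure D3:**
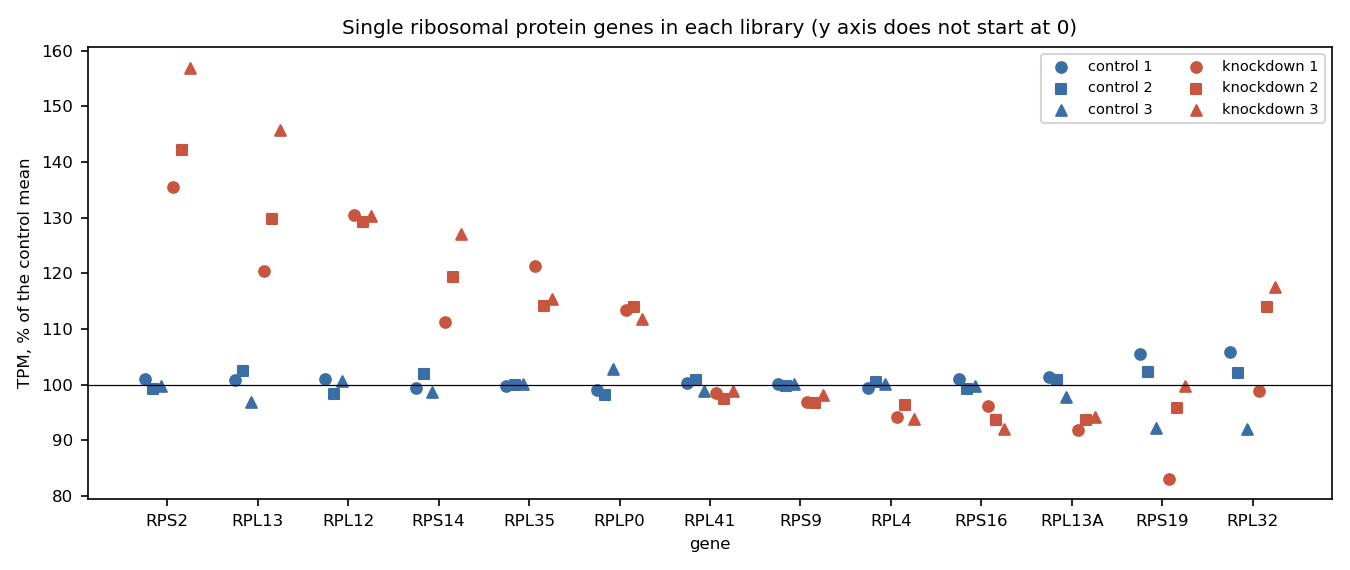
TPM of 13 ribosomal protein genes in each library as a percentage of the gene's control mean, with a symbol for each replicate and a y axis that does not start at 0. RPS2, RPL13, RPL12, RPS14, RPL35 and RPLP0 lie above the controls in all knockdown libraries, RPS9, RPL4, RPS16 and RPL13A lie just below them, and RPL41, RPS19 and RPL32 overlap.

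The most abundant ribosomal protein genes did not share one pattern. RPL41, which encodes a very short large subunit peptide and was the highest of the family, was at 10055, 10107 and 9902 TPM in NC and 9878, 9753 and 9911 TPM in KD. One KD library lay among the controls and the gene was not called (log2 fold change -0.03, 95% interval -0.05 to 0.00, limma adjusted p = 0.144). RPLP0, at 5053, 5002 and 5240 TPM in NC and 5780, 5811 and 5702 TPM in KD, rose by 0.18 (limma adjusted p = 0.000819). RPL35 rose from 4863, 4870 and 4880 TPM to 5906, 5556 and 5617 TPM. RPS27 (0.03, limma adjusted p = 0.259) and RPS12 (0.07, limma adjusted p = 0.0684) were not called. At the other end of the family, RPL22 was at 346.10, 340.73 and 338.03 TPM in NC and 315.42, 364.19 and 369.76 TPM in KD, with overlapping groups (0.03, 95% interval -0.11 to 0.17, limma adjusted p = 0.730). The missing call rested on KD 1, without which the log2 fold change was 0.10 and called. RPL36A, RPL23A and RPL5 were the next lowest, and all of them were called higher. The ranks of RPL22, RPL36A and RPL23A are uncertain, because reads may have been shared with their pseudogenes. RPL23AP42 and RPL36AP37 averaged 2188 and 1549 TPM over the 6 libraries, against 692.1 and 552.3 TPM for RPL23A and RPL36A. Mean TPM as listed ran from 345.7 to 9934 over the family, although a single ribosome takes nearly every one of these proteins in equal number.

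Counts by place in the ribosome are to be read against the 33 of 46 large and 18 of 32 small subunit genes called higher. In the P stalk, which recruits translation factors to the large subunit, the messenger RNAs of all 3 genes rose. RPLP0, RPLP1 and RPLP2 were all called, with log2 fold changes of 0.18, 0.19 and 0.20. RPLP2 was at 2085, 2099 and 2075 TPM in NC and 2474, 2353 and 2385 TPM in KD (limma adjusted p = 0.000572). RPLP1 was more variable, at 1806, 1819 and 1647 TPM in NC and 1931, 2014 and 2074 TPM in KD (limma adjusted p = 0.0174). RPL5 and RPL11, which join the 5S ribosomal RNA and can bind the p53 regulator MDM2 when free, both rose. RPL5 was at 706.88, 714.91 and 706.40 TPM in NC and 749.41, 766.40 and 756.76 TPM in KD (0.09, limma adjusted p = 0.00401), and RPL11 rose by 0.16 (limma adjusted p = 0.00212).

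Of 8 proteins that line the exit tunnel or its rim, where the new chain leaves the ribosome, RPL19, RPL23A, RPL26, RPL35 and RPL39 rose (log2 fold changes from 0.07 to 0.22) and RPL4 fell. RPL17 (0.04, limma adjusted p = 0.175) and RPL31 (0.06, limma adjusted p = 0.346) were not called. Under quantile normalization RPL26 (-0.02), RPL39 (-0.04) and, in the next group, RPS15 (-0.01) turned negative. The call of RPL39 (limma adjusted p = 0.0458) was lost in 5 of the 6 fits that left out a replicate. Of 8 proteins around the decoding region and the messenger RNA channel, RPS2, RPS15, RPS18, RPS23 and FAU rose and RPS9 fell, while RPS3 (-0.01, limma adjusted p = 0.770) and RPS27A (0.09, limma adjusted p = 0.139) were not called. RPS18 was at 2784, 2718 and 2720 TPM in NC and 3059, 3127 and 3064 TPM in KD (0.17, limma adjusted p = 0.000392), and RPS23 at 3760, 3865 and 3782 TPM in NC and 4156, 4021 and 4072 TPM in KD (0.10, limma adjusted p = 0.00466). FAU, whose ribosomal protein is made as a fusion with a ubiquitin-like protein, was at 1700, 1699 and 1726 TPM in NC and 1916, 1864 and 1808 TPM in KD (0.12, limma adjusted p = 0.00669).

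The paralogues left out by the rule, which encode close relatives of single ribosomal proteins, varied more. Of 8 listed, RPL3L and RPL10L did not reach 1 TPM. RPL26L1 was at 182.59, 176.13 and 178.92 TPM in NC and 247.58, 235.03 and 227.10 TPM in KD (log2 fold change 0.40, limma adjusted p = 0.000358). RPL22L1 was at 317.74, 333.64 and 314.12 TPM in NC and 395.10, 398.08 and 395.30 TPM in KD (0.30, limma adjusted p = 0.000325). Both rose without overlap. RPL36AL was called too (0.14, limma adjusted p = 0.0285), but in only 1 of the 6 fits that left out a replicate.

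RPS27L, a target of p53, and RPL39L fell. RPS27L was at 431.65, 419.89 and 389.37 TPM in NC and 316.32, 340.96 and 361.95 TPM in KD (-0.28, limma adjusted p = 0.0107). RPL39L was at 60.38, 56.52 and 55.60 TPM in NC and 42.57, 44.38 and 45.31 TPM in KD (-0.38, limma adjusted p = 0.000986). RPL7L1 was not called (-0.10, limma adjusted p = 0.154). Relative to its partner, RPL22L1 rose from 94.2% ± 3.25 to 113.8% ± 9.98 of the TPM of RPL22, RPL26L1 from 5.52% ± 0.0951 to 6.92% ± 0.272 of RPL26, while RPL39L went from 1.85% ± 0.113 to 1.35% ± 0.0486 of RPL39 and RPS27L from 8.45% ± 0.367 to 6.80% ± 0.633 of RPS27 (SD, n = 3). None of these 4 ratios overlapped between groups. The ratio of RPL22L1 to RPL22 leaves out the copy RPL22P1, which rose in KD, and its separation depends on that. RPL7L1 went from 4.997% ± 0.263 to 4.23% ± 0.293 of RPL7, also without overlap, and RPL36AL from 61.6% ± 0.56 to 58.1% ± 6.24 of RPL36A with overlapping groups (SD, n = 3). For such ratios 3 libraries against 3 allow no exact permutation p below 0.1.

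Other genes of the translation apparatus are described in lists, to be read against the 12.1% of all tested genes that were higher and the 24.0% that were lower. Under median-of-ratios scaling the balance of these lists and the paralogues together turned from 35 higher and 58 lower to 60 higher and 30 lower. Each gene was counted once. The balance of all tested genes moved as well, to 16.8% higher and 16.4% lower under that scaling. Of 47 tested initiation, elongation and termination factors, 7 were higher and 12 lower, with a median log2 fold change of -0.04. PABPC1, which binds the poly(A) tail, rose by 0.26 (limma adjusted p = 9.3e-05), EIF3K by 0.18 and EIF5A by 0.17. EEF2, the elongation factor that moves the ribosome along the messenger RNA, fell from 1988, 1984 and 2013 TPM to 1516, 1543 and 1527 TPM (-0.38, limma adjusted p = 8.53e-06), and EIF5 (-0.53) and EIF1B (-0.43) fell further on the log2 scale.

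Genes outside the family that are known for a TOP tract were divided, with 7 of 19 higher, 5 lower and a median of 0.02. A tract was found at a listed start in 11 of the 13 that the table of starts held. RACK1, a protein of the small subunit outside the naming rule, rose from 1834, 1810 and 1837 TPM to 2096, 2091 and 2043 TPM (0.18, limma adjusted p = 0.00026). PABPC1 and EIF2A (0.20) rose too, whereas EEF2, EIF2S3 (-0.30) and HNRNPA1 (-0.23) fell.

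Of 64 genes for ribosome assembly and RNA polymerase I, 7 were higher and 18 lower, with a median of -0.04. BOP1 (0.38), GNL2 (0.23) and NHP2 (0.22), which act in the maturation of the large subunit or of ribosomal RNA, had the largest rises among the called genes, and RRN3 (-0.33) and POLR1C (-0.30) of the polymerase I machinery and LTV1 (-0.24) of small subunit assembly the largest falls. Among 14 regulators of mTORC1 and of TOP translation, EIF4EBP1 (0.27) and RPTOR (0.19) were higher and TSC1 (-0.43), AKT1S1 (-0.36) and MTOR (-0.18) were lower. The 78 nuclear genes for mitochondrial ribosomal proteins gave 12 higher and 21 lower, with a median of -0.03, and their summed share was 0.800% ± 0.00833 in NC and 0.803% ± 0.00933 in KD (SD, n = 3). The largest called rises were those of MRPL24 (0.40), MRPL41 (0.40) and MRPL23 (0.32), and the largest called falls those of MRPL4 (-0.33), MRPS35 (-0.27) and MRPL34 (-0.26). All of these named genes passed an adjusted p under 0.05 in limma.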

How the data were processed

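A single table of TPM, rounded to 2 decimals, was deposited by the authors. The submitters' processing notes name fastp, RSEM and the build GRCh38.p13, with no versions of the programs. Read depth cannot be recovered from TPM and is unknown here, so no counting error is given. All 6 columns were assigned by their labels and 0 were left out. Identifiers were joined to symbols (61369 of 61541) and to GENCODE 29 for gene types, coordinates and principal transcripts.

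Values were tested as log2(TPM + 1) with limma 3.58.1 (lmFit, eBayes with trend) in R 4.3.3, over the 13722 genes averaging 1 TPM or more. Tests were two-sided, with Benjamini-Hochberg adjustment over all of these genes. In simulated data with 200 changed genes, 10 were recovered at a log2 change of 0.15, 157 at 0.3 and 198 at 1. False calls numbered 1, 9 and 10. The changed genes came from a wider range of levels than the family's, so the simulation does not give the recovery for the family. A call is an adjusted p under 0.05. Sums and ratios carry no test. The members and lists were chosen with earlier results of these data known. Named with values were the 6 most and 4 least abundant members, the 6 largest called rises and falls, functional subgroups, paralogues, and the 3 largest called rises and falls of each companion list. Some genes that this rule names are not reported here. Pseudogenes and readthrough genes were named after their values were seen. Promoter sequences, 250 bases before to 50 after each start, came from RefSeq (GRCh38.p14).

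Alternatives were pseudocounts of 0.1 and 0.5, testing every gene above 0 TPM or those averaging 5 TPM, scaling by median of ratios or by quantiles, rescaling without mitochondrial transcripts or without the family, a length and GC correction, adding pseudogenes, no trend, a replicate block, a fold limit, and each replicate left out.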

Additional observations from a re-analysis of the deposited data

How the results depend on the processing

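The family's median was positive under each alternative run, and its summed share under those it was run for (median of ratios, both rescalings, added pseudogenes, left-out replicates and without RPS2, RPL13 and RPL12), whereas the number of calls depended on the scaling and on the test. The 51 genes higher became 29 with quantile normalization, 31 without a trend and 0 with an added limit of 1 on the absolute log2 fold change. Over all tested genes, 16.3% were higher with quantile normalization and 11.5% without a trend. The 4 lower became 1 with no limit on low values, 0 with median-of-ratios scaling, 7 with quantile normalization, 1 with the length and GC correction, 0 without a trend and 0 with the fold limit. The median log2 fold change of 0.10 became 0.172 with median-of-ratios scaling, 0.0447 with quantile normalization, 0.0893 without mitochondrial transcripts, 0.126 rescaled without the family and 0.161 with the length and GC correction. The log2 ratio of the summed TPM, 0.11, became 0.177 with median-of-ratios scaling, 0.131 rescaled without the family and 0.0907 without RPS2, RPL13 and RPL12, an alternative chosen after seeing the data. The log2 ratio of the large to the small subunit, 0.0142, became 0.0205 with pseudogenes added. In the companion lists, 35 higher and 58 lower became 60 and 30 with median-of-ratios scaling. Over all tested genes, 12.1% higher and 24.0% lower became 16.8% and 16.4%. Beyond the scalings' own construction, the cause of these shifts was not tested.

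With each replicate left out in turn, 42 to 48 genes were higher and 3 to 4 lower, the median was 0.0985 to 0.107, the median of the large minus that of the small subunit 0.0206 to 0.0435, the log2 ratio of the sum 0.0982 to 0.113, that of the subunit ratio 0.0131 to 0.0163, and the companion lists gave 24 to 31 higher and 43 to 51 lower. Of the 51 genes higher, 40 were called higher in all 6 of these fits and 20 under all 18 alternatives that refitted the test (the fold limit, which left 0, is not among them), among them RPS2, RPL13, RPL12, RPS14, RPL36A and RPL35. Calls lost with a replicate left out were those of RPL3 (all 6 fits), RPS9, RPL39 and RPL36AL (5), RPS15 and POLR1C (4) and RPLP1 (2: KD replicates 2 and 3). Of the 4 lower, 3 held in all 6 fits (not RPS9) and 0 under all 18.

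Samples with the same replicate number did not deviate together (correlations -0.0198, 0.0341 and 0.0334), so the numbers were not taken as pairs. A replicate block gave 42 higher and 3 lower (9.98% and 19.2% of all tested genes).

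The named genes that changed sign were the following, while over all 78 genes the number with a positive change went from 71 to 74 with median-of-ratios scaling, 56 with quantile normalization and 76 with the length and GC correction. Scaled by median of ratios, RPL41 was at 0.0448 on the log2 scale, RPS9 at 0.0293 and RPS3 at 0.061. With quantile normalization RPS27 was at -0.0129, RPS12 at -0.0174, RPL17 at -0.018, RPL39 at -0.042, RPL26 at -0.0162, RPS15 at -0.00556 and RPS3 at 0.0526. With the length and GC correction RPL41 was at 0.0193, RPS16 at 0.00267, RPL4 at 0.0155, RPS9 at 0.00111 and RPS3 at 0.0605, and rescaled without the family RPS3 was at 0.015. With a replicate left out RPL22 ranged from -0.0113 to 0.103 and RPS3 from -0.0284 to 0.00887. Of the other values of single genes under an alternative, 1016 kept direction and side of the threshold, 87 lost the call and 12 gained it.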

Other observations

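The chromosome of the genes was examined after their values were seen. Of the 4 genes called lower, RPL13A, RPS16 and RPS9 are on chromosome 19. The 12 ribosomal protein genes on that chromosome gave 5 higher and 3 lower, with a median log2 fold change of 0.02. The 66 tested on other chromosomes gave 46 higher and 1 lower, with a median of 0.12. Of the 813 other tested genes of chromosome 19, 58 were higher and 303 lower, with a median of -0.17, against -0.06 for all tested genes. Whether the place on the chromosome has a part in the values of these genes was not tested.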
